A study of Mus musculus with 2 samples.

Results

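Klrg1, Cx3cr1, S1pr5, Kcnj8, Cmklr1, Stk32c, As3mt and Itgad are 8 of the 13528 genes counted in single immune cells of the mouse liver. They were chosen from these counts, as genes high in effector memory CD8+ T (Tem) cells of TG mice or in 2 cell clusters numbered 11 and 12, so their high level there is how they were picked and not a result. Immune cells carrying CD45 came from livers of C57BL/6 mice labelled as 10 weeks old, while the study's methods give a younger age. In TG mice the mouse CD4 promoter drives dnTGFβRII, a dominant negative form of the human type II receptor for TGF-β, in T cells, and the mice are a model of primary biliary cholangitis. Their cells shared 1 capture with those of IFN-γ ARE-Del-/- animals, while wild type (WT) cells shared the other with those of P40-/-IL-2Ra-/- animals. The deposited cell table names a genotype only for TG cells of the first pool and WT cells of the second. TG gave 4647 cells with 18498477 counted RNA molecules (UMIs) and a median of 3298 UMIs per cell, and WT gave 7282 cells with 22216379 UMIs and a median of 2653.5. Since each genotype has 1 library, no test was possible, and a difference between genotypes cannot be told apart from one between captures. Levels are CPM, a gene's UMIs in the summed cells scaled to 1e+06 UMIs, with exact Poisson 95% intervals, and differences are log2 ratios of TG to WT with exact conditional binomial 95% intervals. These intervals cover counting error only. No difference between animals enters them.

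After an infection is cleared most effector CD8 T cells die. Those nearest to that end carry the inhibitory receptor KLRG1, have lost the features of long-lived memory cells, circulate in blood and kill on contact, and they share much of their gene program with mature NK cells. The transcription factors T-bet and ZEB2 drive this state, while TCF-1 and BACH2 maintain memory. KLRG1 binds cadherins. CX3CR1 is the receptor for fractalkine, S1PR5 senses sphingosine 1-phosphate and lets NK cells leave bone marrow and lymph nodes, and CMKLR1 is the receptor for chemerin. KCNJ8 is the pore of an ATP-sensitive potassium channel, ITGAD is the integrin chain that pairs with ITGB2 to form CD11d/CD18, AS3MT methylates arsenic, and STK32C is a serine/threonine kinase with no role in T cells given here.

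The genes lie on 5 chromosomes of GRCm38, and all are annotated as protein coding by GENCODE. Klrg1 is at chr6:122270596-122282882 on the minus strand, Kcnj8 at chr6:142564837-142571614 on the minus strand, Stk32c at chr7:139103638-139213307 on the minus strand and Itgad at chr7:128154376-128223816 on the plus strand. Cx3cr1 is at chr9:119901616-120069879 and S1pr5 at chr9:21242912-21248443, both on the minus strand. Cmklr1 is at chr5:113612354-113650426 on the minus strand and As3mt at chr19:46707458-46741099 on the plus strand. RefSeq promoter windows of GRCm38.p6, each running from 250 bases before to 50 bases after a start site, were matched for 6 of the 8 genes (7 windows, with 2 for Stk32c). Klrg1 and Itgad were not matched. The windows of Cx3cr1 and S1pr5 are shown because these had the most similar levels over clusters of the 8 genes, and that of Kcnj8 because it was higher in WT in cluster 3. Capitals mark the 6-letter motifs searched on both strands.
Cx3cr1, chr9:120068247-120068546, minus strand: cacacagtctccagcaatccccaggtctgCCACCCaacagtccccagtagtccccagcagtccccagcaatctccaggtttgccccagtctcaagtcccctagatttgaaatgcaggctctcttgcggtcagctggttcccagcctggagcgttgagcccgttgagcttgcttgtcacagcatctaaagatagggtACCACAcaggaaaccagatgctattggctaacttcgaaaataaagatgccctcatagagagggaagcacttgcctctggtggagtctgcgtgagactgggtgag
S1pr5, chr9:21248394-21248693, minus strand: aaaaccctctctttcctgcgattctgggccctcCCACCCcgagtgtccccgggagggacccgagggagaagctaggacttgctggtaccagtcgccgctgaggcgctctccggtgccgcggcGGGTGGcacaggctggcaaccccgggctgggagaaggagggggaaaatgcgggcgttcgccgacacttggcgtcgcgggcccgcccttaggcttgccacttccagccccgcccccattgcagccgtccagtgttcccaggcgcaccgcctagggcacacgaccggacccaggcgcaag
Kcnj8, chr6:142571565-142571864, minus strand: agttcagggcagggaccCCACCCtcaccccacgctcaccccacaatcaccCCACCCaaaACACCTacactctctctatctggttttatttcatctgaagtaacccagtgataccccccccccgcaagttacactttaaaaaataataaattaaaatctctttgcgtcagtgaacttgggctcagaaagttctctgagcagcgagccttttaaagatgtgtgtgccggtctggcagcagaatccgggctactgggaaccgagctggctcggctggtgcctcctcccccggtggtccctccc
The T-box letters AGGTGT were found in 1 of the 7 windows (Kcnj8, 191 bases before the start site) and in 13.7% of 32851 promoter windows. The E-box letters CAGGTG used by ZEB factors, which overlap the T-box letters where both occur, were in 1 window (Stk32c) and in 20.2% of all. The Runx letters TGTGGT were in 1 window (Cx3cr1, 54 bases before the start site) and in 16.8% of all. The Klf letters CCACCC were in 5 of the 7 windows and in 31.5% of all. A match is a stretch of letters and not a binding site.

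The deposited names were checked before the genes were compared, because many of these transcripts lie in cells named NK. NK cells lack the T cell receptor complex, yet 602 of 759 TG cells named NK held a Cd3e UMI (79.3%, 95% CI 76.3 to 82.1), against 72 of 615 WT cells (11.7%). The clusters differed. In cluster 11 it was 332 of 343 TG cells and 3 of 22 WT cells, and in cluster 3 it was 236 of 263 TG cells and 38 of 306 WT cells. Counting Cd3d and Cd3g too, the shares were closer, at 83.9% of TG and 44.4% of WT cells named NK. They were 99.4% and 22.7% in cluster 11 and 95.1% and 67.6% in cluster 3. Trac, the T cell receptor alpha constant gene, was at 992 CPM in TG and 324 in WT cells of cluster 11, and at 1143 and 245 CPM in cluster 3. Cd4 was at 227 CPM in TG and 21.6 in WT cells of cluster 11, and at 546 and 20.4 CPM in cluster 3. Cd8a and Cd8b1 summed to 182 and 64.8 CPM in cluster 11 and to 115 and 94.7 CPM in cluster 3. Ncr1, which encodes the NK receptor NKp46, was present in both genotypes, at 412 and 821 CPM in cluster 11 and at 506 and 961 CPM in cluster 3. Cells of cluster 8 kept the NK pattern in both genotypes, with Ncr1 at 883 and 988 CPM, Eomes at 391 and 692 CPM and Cd3e at 133 and 67.5 CPM. The share of cluster 8 cells with a Cd3e UMI was 22.2% in TG and 10.8% in WT, beside 18.4% and 5.94% in the B cells of cluster 1. Clusters 3 and 11 are therefore called by number below, since the same number holds different cells in TG and WT, and only cluster 8 is called NK cells. Cluster 12 carried CD8 T cell genes in both genotypes (Cd3e 1458 and 1202 CPM, Cd8a 874 and 797 CPM). Cluster 2, named CD8αα, had Cd8a at 984 and 1104 CPM with little Cd8b1, but its WT cells held 855 CPM of the gamma delta receptor gene Trdc against 95.1 CPM in TG. Cluster 7 was proliferating, with Mki67 at 1127 CPM in TG and 1035 in WT, and its cells were mixed. Beside Cd8a at 339 and 262 CPM it held Cd4 at 249.3 and 165 CPM, the plasma cell gene Jchain at 30.6 and 782 CPM, and all 6 NK markers, with a summed level of 1562 CPM in TG and 703 in WT. Cluster 12 also held Cd4, at 291 and 219 CPM, and NK markers summing to 802 and 369 CPM. The part of these other cells in the ratios of clusters 7 and 12 was not tested. Nor was that of the Trdc difference in the ratios of cluster 2.

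**Figure D1:**
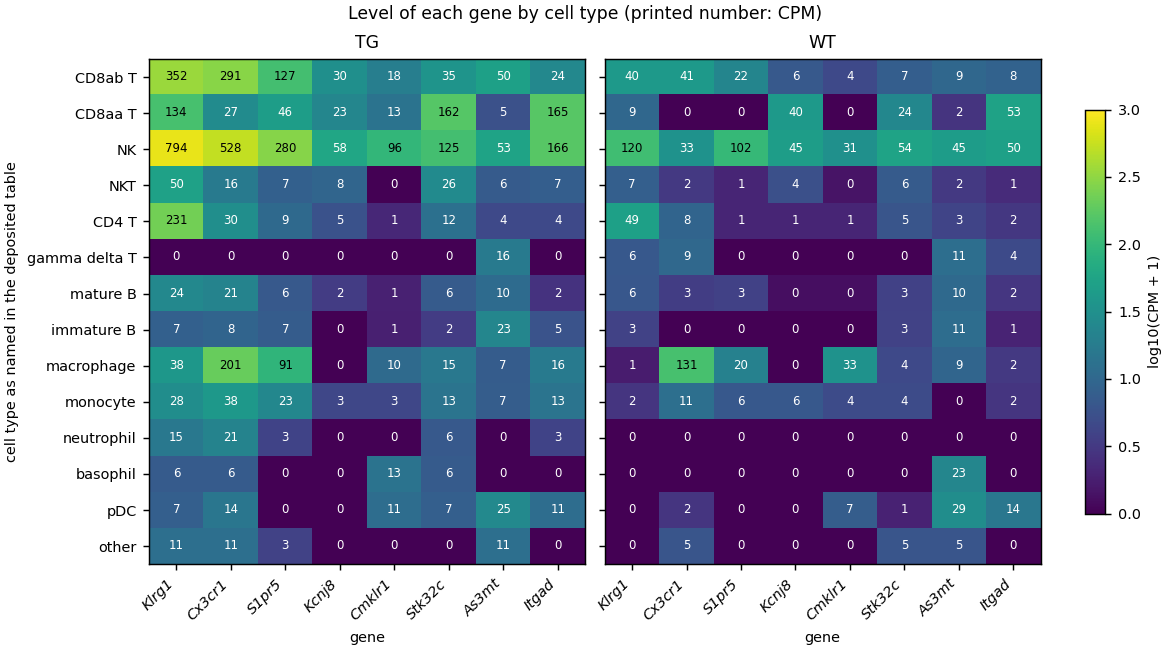
CPM of the 8 genes (columns) in each deposited cell type (rows), TG on the left and WT on the right, with log10(CPM + 1) as colour. Most high values in TG sit in the rows named CD8ab T, CD8aa T and NK, which hold the cells used to choose the genes. Klrg1 is also high in TG cells named CD4 T (231 CPM, above 134 in CD8aa T). S1pr5 is high in TG cells named macrophage (91.5 CPM, above 46.1 in CD8aa T). Cx3cr1 in cells of that name is at 201 CPM in TG and 131.5 in WT. Those of cluster 15 held more of the monocyte than of the macrophage markers.

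In TG mice these transcripts were concentrated in cells named CD8 T or NK. The effector CD8 clusters (2, 7, 12, 18 and 23) and the cells named NK together made up 40.2% of TG cells and held between 86.1% (Stk32c) and 94.0% (Cmklr1) of the UMIs of 7 genes. As3mt was the exception, with 70.3%. These sets hold the TG cells used to choose the genes, so the high TG shares describe the choice. In WT mice the same sets were 15.5% of cells and held from 41.3% (Cx3cr1) to 81.5% (S1pr5). The B cells of cluster 1 serve as a level for comparison, and the source of these transcripts in them was not tested. Klrg1 was at 8.61 CPM there in TG and 2.12 CPM in WT, and Cx3cr1 at 8.93 and 2.47 CPM. As3mt stood at 9.25 and 9.89 CPM in these B cells and at 22.9 and 10.8 CPM in immature B cells.

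In the pooled effector CD8 clusters (1108 TG and 512 WT cells) Klrg1 was at 413 CPM in TG and 59.1 in WT, a log2 ratio of 2.80 (2.54 to 3.08). Cx3cr1 was at 316 and 57.1 CPM, a log2 ratio of 2.47 (2.20 to 2.75). Past 2-fold higher in TG were 7 of the 8 genes, with Kcnj8 just short at 1.00 (0.49 to 1.54), while 5.25% of 11058 genes passed the same limit. That contrast was used to choose the genes, so the count describes the choice. S1pr5 was at 140 and 31.7 CPM (2.15) and Cmklr1 at 22.3 and 5.28 CPM (2.08). The remaining ratios were 2.32 for Stk32c, 2.30 for As3mt and 1.53 for Itgad.

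These pooled ratios mix a difference in which CD8 clusters were present with a difference inside each cluster. Cluster 12 made up 17.4% of TG and 7.21% of WT CD8 T cells, and the naive cluster 4 made up 10.1% and 35.8%. Over all CD8 T cells the log2 ratio of Klrg1 was 3.13, and with the TG cluster shares given to both genotypes over 6 clusters it was 2.53 (2.23 to 2.84), or 3.33 without the 3 cells that held most of its UMIs in each profile. For Cx3cr1 the values were 2.78 and 2.17 (1.87 to 2.48). Stk32c went from 2.67 to 2.64, and Kcnj8 went from 1.38 to 0.98. The genes were chosen as high in TG cells of these sets, so the sign of these ratios is no result.

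**Figure D2:**
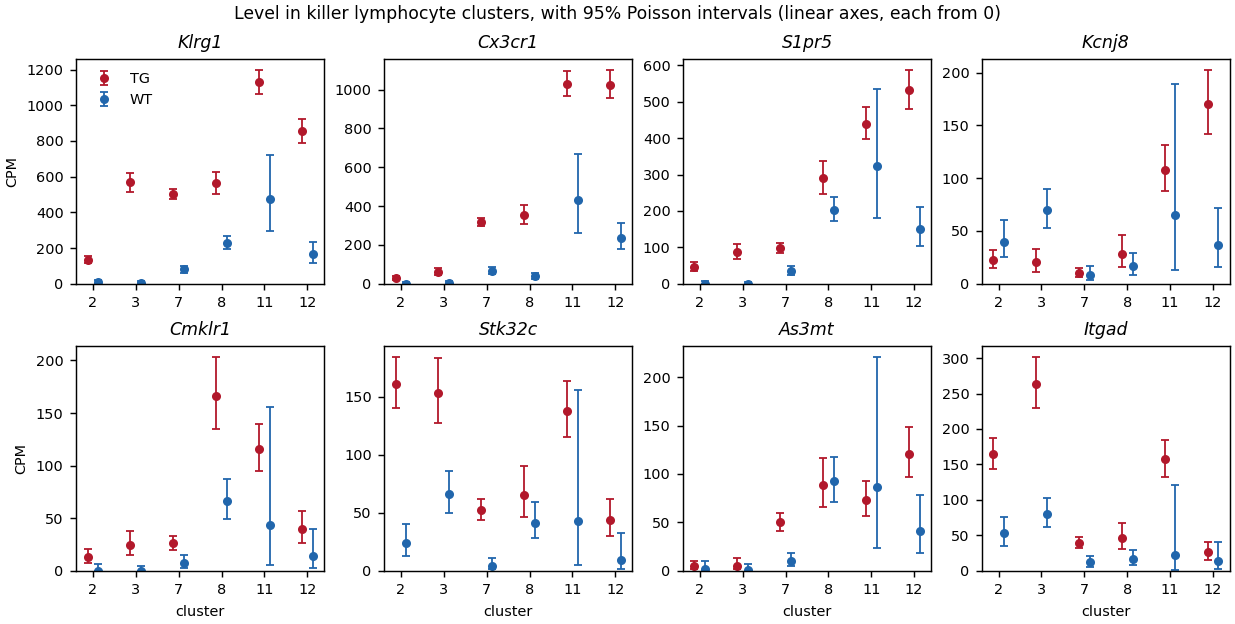
CPM of each gene (vertical, linear axes from 0) in clusters 2, 3, 7, 8, 11 and 12 (horizontal), with TG in red, WT in blue and exact Poisson 95% intervals as bars. Klrg1 and Cx3cr1 peak in TG clusters 11 and 12, which were used to choose the genes. Itgad peaks in TG cluster 3, and Kcnj8 in cluster 3 is higher in WT, at 69.6 against 20.3 CPM.

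Klrg1, the receptor that names the state, was present in TG cells of all 6 clusters. In cluster 12 it was at 855 CPM (789 to 924) in TG and 168 CPM (119 to 232) in WT, a log2 ratio of 2.34 (1.86 to 2.86). The WT value rested on few cells, since 16 of 73 cells held a UMI and 3 cells held 48.6% of them. In the mixed, proliferating cluster 7, where NK markers were also higher in TG, it was at 502 CPM in TG and 79.9 in WT (2.65, 2.31 to 3.01). NK cells of cluster 8 were not used in the choice of genes, though they come from the same libraries. They had 563 CPM (502 to 628) in TG and 227 CPM (194 to 265) in WT, a log2 ratio of 1.31 (1.03 to 1.59). WT NK cells therefore held clear Klrg1, and both genotypes lay well above the B cell level. In cluster 3 Klrg1 was at 568 CPM in TG and 6.00 in WT (5 UMIs), the highest log2 ratio of the 6 clusters (6.56), but the TG cells there carried Cd3e and the WT cells mostly did not. Among the 236 TG and 38 WT cells of cluster 3 that held a Cd3e UMI, Klrg1 had 439 UMIs and 0 UMIs. Cluster 11, with 22 WT cells, was at 1128 CPM in TG and 475 (298 to 719) in WT.

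Shares of cells were also higher in TG than in WT. Thinned to 1000 UMIs each, 49.4% of TG cluster 12 cells held Klrg1 (95% CI 43.0 to 55.8) against 12.3% of WT cells (5.80 to 22.1). In cluster 8 the shares were 42.5% and 18.8%, and in cluster 7 they were 36.4% and 3.79%. Cells named mature B had 1.78% and 0.335%. Before thinning, 77.9% of TG and 21.9% of WT cluster 12 cells held a Klrg1 UMI.

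Klrg1 also marked a population outside the clusters above. Cluster 21, named CD4 T, carried Foxp3, the factor that defines regulatory T cells, at 923 CPM in TG and 953 in WT. Its Klrg1 level was 692 CPM in TG (48 cells) and 372 CPM in WT (65 cells), a log2 ratio of 0.90 (0.48 to 1.32). The other 7 genes had at most 4 UMIs each there in either genotype. Klrg1 without Cx3cr1 and S1pr5 was thus seen in a Foxp3 population of both genotypes.

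Cx3cr1 followed a narrower pattern. It was at 1026 CPM in TG cluster 12 and 1030 CPM in TG cluster 11, against 317 CPM in cluster 7, 60.8 CPM in cluster 3 and 27.2 CPM in cluster 2. The TG intervals of clusters 11 and 12 overlapped, and both lay above all the others. Clusters 11 and 12 were used to choose the gene, so their place at the top describes the choice. Within cluster 12 the log2 ratio to WT was 2.12 (1.71 to 2.55), from 237 CPM in WT. In NK cells of cluster 8 Cx3cr1 was at 354 CPM (306 to 406) in TG and 39.96 (26.8 to 57.4) in WT, a log2 ratio of 3.15 (2.58 to 3.76), which was wider than that of Klrg1 in the same cells. The WT count was 29 UMIs, of which 3 cells held 37.9%. Myeloid cells use the fractalkine receptor in health. Cluster 15, named macrophage, held all 7 monocyte markers in both genotypes, summing to 5842 and 7470 CPM. The 6 macrophage markers summed to 916 and 774 CPM, most of it Csf1r (861 and 596 CPM), with C1qa at 0 and 41.2 CPM and 0 UMIs of Vsig4 and Marco. The Cx3cr1 level of cluster 15 was 267 CPM in TG and 263 in WT, a log2 ratio of 0.02 (-0.33 to 0.36).

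S1pr5 kept close to Cx3cr1 (Pearson r = 0.86 of log2(CPM + 1) over 39 cluster and genotype profiles, which share libraries and cells of 1 capture each and are given as a description). In cluster 12 it was at 532 CPM in TG and 150 in WT, a log2 ratio of 1.82 (1.31 to 2.38). In clusters 2 and 3 WT cells held 0 UMIs. Against a floor of 3 UMIs per profile, 5.45 and 3.60 CPM, the TG levels of 46.1 and 86.2 CPM were at least 8.44-fold and 23.9-fold higher. The exact 95% intervals of the log2 ratio, which also carry the counting error of TG, began at 2.74 and 4.24. WT NK cells expressed it well, and cluster 8 had 290 CPM in TG and 204 in WT (0.51, 0.18 to 0.84). Cluster 15 had 118 CPM in TG and 36.8 in WT. Klrg1 was at 40.7 CPM in those TG cells and at 0 UMIs in the WT ones, and the part of free RNA in these values was not tested.

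Cmklr1 was the 1 gene of the 8 whose TG level was highest in NK cells of cluster 8 among the 6 clusters. It was at 166 CPM (134 to 203) in TG cluster 8 and 115 CPM in TG cluster 11, against 39.5 CPM in cluster 12 and 12.8 CPM in cluster 2. WT NK cells of cluster 8 had 66.1 CPM, a log2 ratio of 1.33 (0.81 to 1.86), and WT clusters 2 and 3 had 0 UMIs. Outside lymphocytes it was at 199 CPM (31 UMIs) in cluster 27, 23 WT cells with the macrophage genes C1qa, at 2046 CPM, and Vsig4, at 386 CPM.

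The clusters that held most Kcnj8 UMIs differed between genotypes, as did the number of cells in them. In TG the cells of clusters 11 and 12, 12.7% of cells, held 63.9% of its UMIs, and those of clusters 2 and 3, 14.5% of cells, held 13.1%. In WT clusters 11 and 12 were 1.30% of cells and held 7.43%, and clusters 2 and 3 were 6.87% of cells and held 54.1%. Clusters 11 and 12 were used to choose the gene. By level, WT cluster 11 (64.8 CPM, 3 UMIs) and cluster 3 had a log2 ratio of -0.10 (-2.42 to 1.52), and WT clusters 12 and 2 one of -0.14 (-1.51 to 1.09). Cluster 12 was at 170 CPM (142 to 203) in TG and 36.4 CPM (15.7 to 71.8) in WT, a log2 ratio of 2.22 (1.201 to 3.47). In cluster 3 the order was the other way, with 20.3 CPM (11.6 to 32.9) in TG and 69.6 CPM (52.8 to 89.9) in WT, a log2 ratio of -1.78 (-2.68 to -0.96). Cluster 2 had 30 UMIs in 410 TG cells and 22 UMIs in 194 WT cells (-0.82, -1.66 to 0.04). No other member was past 2-fold lower in TG in any of the 6 clusters, and over all genes of cluster 3 6.28% were. The 51 WT cells of cluster 3 with Kcnj8 were spread out, with 3 cells holding 10.3% of its 58 UMIs. The 268 WT cells of cluster 3 without a Cd3e UMI had 79.1 CPM and the 38 with one had 21.6 (3 UMIs). Counting Cd3d and Cd3g too, the 207 WT cells with a Cd3 UMI had 83.7 CPM and the 99 without had 36.3, so the place of Kcnj8 within WT cluster 3 depends on which Cd3 gene is used. TG cells with Cd3e were at 19.9 CPM. The difference in cell identity under this cluster number and the difference in genotype cannot be told apart.

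Stk32c and Itgad had similar profiles (r = 0.80 over the same 39 profiles). In TG clusters 2 and 3 held 55.0% of Itgad UMIs and 42.6% of Stk32c UMIs but 2.73% of Cx3cr1 and 2.04% of As3mt UMIs. Itgad was at 165 CPM (143 to 188) in TG cluster 2 and 264 CPM (229 to 302) in TG cluster 3, with 52.7 and 80.4 CPM in WT. The log2 ratios were 1.64 (1.08 to 2.25) and 1.71 (1.31 to 2.13). Over cells named NK without a Cd3e UMI the order turned, with a log2 ratio of -0.65 in place of 1.74 over all cells named NK. Those cells were spread differently over clusters, since 236 of 263 TG and 38 of 306 WT cells of cluster 3 held a Cd3e UMI. Within cluster 8 Itgad was past 2-fold higher in TG, with 26 UMIs in 153 TG cells and 12 UMIs in 287 WT cells. The part of this mix in the turn was not tested. Itgad in TG cluster 11 was at 157 CPM (133 to 185), near the level of cluster 2. In cluster 12 Itgad was low in both, at 25.9 and 13.7 CPM. In WT as well, clusters 2 and 3 held 54.9% of its UMIs. Stk32c was at 162 CPM in TG cluster 2 and 23.6 CPM in WT (2.77, 1.97 to 3.71), at 153 and 66.0 CPM in cluster 3 (1.22, 0.75 to 1.70) and at 138 CPM in TG cluster 11. Without clusters 2 and 7 the effector CD8 ratio was 0.67 for Stk32c and 0.35 for Itgad, and it was 2.97 for Kcnj8. Itgb2, the partner chain of Itgad, was high in both genotypes, at 879 and 756 CPM in the effector CD8 clusters.

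As3mt was at 121 CPM in TG and 41.0 in WT cells of cluster 12 (1.56, 0.57 to 2.74) and at 50.03 and 9.59 CPM in cluster 7 (2.38, 1.41 to 3.55). NK cells of cluster 8 had 88.5 and 92.3 CPM, a log2 ratio of -0.06 (-0.62 to 0.49). It was nearly absent from clusters 2 and 3, with 6 and 4 UMIs in TG. As3mt and S1pr5 were also present in TG cells of the central memory cluster 13, at 39.2 and 37.2 CPM, where the other 6 genes were at 11.4 CPM or less (Klrg1 at 7.23).

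**Figure D3:**
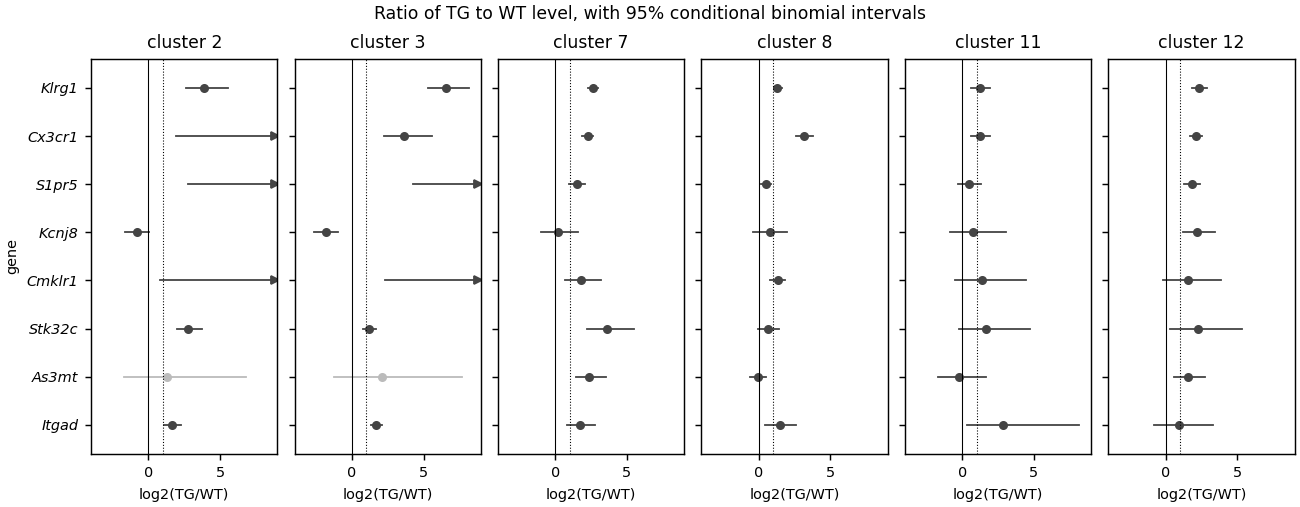
Log2 ratio of TG to WT level (horizontal) for each gene (vertical) in 6 clusters, with conditional binomial 95% intervals. Grey marks genes with under 10 UMIs in both profiles together, arrows mark genes at 0 UMIs in WT, the solid line is 0 and the dotted line is 2-fold. Klrg1 and Cx3cr1 lie to the right of 0 in all 6 panels, and Kcnj8 lies to the left in cluster 3 (-1.78).

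Counted by cluster, 7 of the 8 genes were past 2-fold higher in TG in cluster 12 (11.8% of all genes tested there) and in cluster 7 (6.65%). It was 6 of 7 tested in cluster 2 (8.14%) and 6 of 7 in cluster 3 (6.47%), As3mt being too low to count in both. Cluster 11 gave 5 of 8, but with 22 WT cells 28.3% of all genes passed. Clusters 11 and 12 and the Tem cells were used to choose the genes, so nothing is read from those counts. NK cells of cluster 8 are the set farthest from that choice, but they come from the same libraries, so their count is a description too. Klrg1, Cx3cr1, Cmklr1 and Itgad passed there, 4 of 8 beside 4.68% of 8382 genes. Over all cells named NK it was 6 of 8 beside 5.55%, with T cell genes in most TG cells. Among those with no UMI of Cd3e, Cd3d or Cd3g (122 TG and 342 WT cells) it was 4 of 8 beside 3.93%. These were Klrg1, Cx3cr1, S1pr5 and Cmklr1, but the cells came from different clusters, 107 of the TG and 226 of the WT cells from cluster 8 and 13 and 99 from cluster 3, where WT cells held 0 UMIs of S1pr5 and Cmklr1.

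The number of the 8 genes held by each cell was then counted. Thinned to 1000 UMIs, 28.1% of TG cluster 12 cells (22.6 to 34.1) and 29.7% of TG cluster 11 cells held at least 3 of the 8 genes, against 6.85% and 13.6% in WT. Clusters 11 and 12 were used to choose the genes, so their high shares describe the choice. Clusters 2, 3 and 7 had 1.95%, 4.94% and 6.27% in TG and 0%, 0% and 0.758% in WT. NK cells of cluster 8 had 17.6% in TG and 2.09% in WT, and 1 of 1068 TG mature B cells reached 3. No share expected from the single genes was computed for these values. In the TG effector CD8 clusters 324 cells held both Klrg1 and Cx3cr1, with 280.1 expected from the shares in each cluster, a ratio of 1.16 (1.03 to 1.29). At 1000 UMIs the interval held 1 (0.94 to 1.39). In cluster 12 alone it was 1.01 (0.86 to 1.18) and in cluster 11 it was 1.00 (0.88 to 1.13). Klrg1 and Kcnj8 in thinned cells of cluster 12 had a ratio of 1.52 (1.02 to 2.17), 1 of 12 pairs there with an interval above 1. Over thinned pairs with at least 5 expected cells the median ratio was 1.098 in TG cluster 12, 1.01 in cluster 11 (19 pairs), 1.42 in cluster 2 (3 pairs), 1.28 in cluster 7 (5 pairs), 1.27 in cluster 8 (6 pairs) and 1.30 in cluster 3 (4 pairs). Of the 18 pairs of clusters 2, 3, 7 and 8, 2 had an interval above 1, both in cluster 3, Klrg1 with S1pr5 (2.04, 1.09 to 3.497) and Klrg1 with Itgad (1.56, 1.01 to 2.30). The 1 WT pair with as many expected cells, Klrg1 with S1pr5 in cluster 8, was at 1.91 (1.13 to 3.02).

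**Figure D4:**
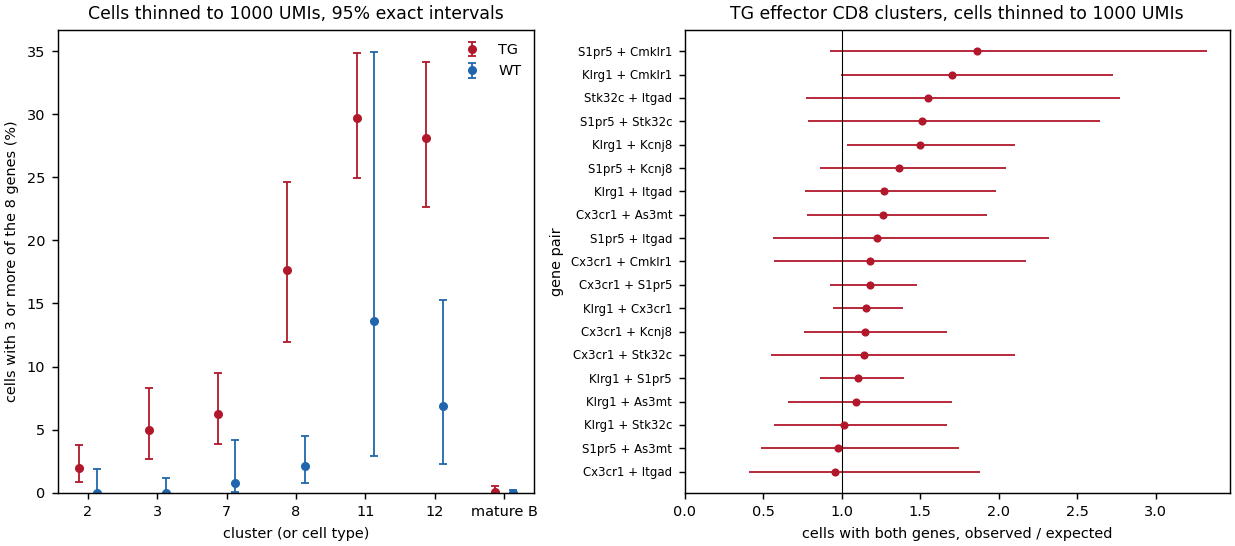
Left, share of cells with at least 3 of the 8 genes after thinning to 1000 UMIs (vertical, percent) by cluster, TG red and WT blue, with exact 95% intervals. Right, observed over expected number of thinned TG effector CD8 cells with both genes of a pair (horizontal) for the 19 pairs with at least 5 expected, with Poisson 95% intervals. The left panel peaks in TG clusters 11 (29.7%) and 12 (28.1%), which were used to choose the genes. In the right panel 17 of the 19 pairs lie above 1, of which 1 has an interval above 1.

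Surface proteins of the same cells were not used to choose the genes, and no antibody to KLRG1 or CX3CR1 was among the tags. By separate flow cytometry the paper reports high KLRG1 protein on CD8αα T cells of TG mice. That protein measure was not compared with the RNA counts here. Values are centred log ratios on the natural log scale, in TG cells with and without a Klrg1 UMI. In the effector CD8 clusters 3 of 48 proteins were higher by at least 0.5 in the 509 cells with Klrg1 than in the 599 without. CD43, a sialoglycoprotein of activated T cells, had a median of 2.99 against 1.95, the integrin chain CD49d 3.32 against 2.48, and the integrin chain CD49b 1.89 against 1.17. The cells with Klrg1 also had more antibody counts (median 1287 against 788), and the part of this in the result was not tested. The pattern differed by cluster. Within the proliferating cluster 7, where antibody counts were similar (1820 and 1840), the same 3 proteins were higher by 0.5, and so were CD11c and CD49a. CD49a was 2.41 against 0.985 and CD49d 3.80 against 2.57. CD5, a brake on T cell receptor signals, was lower at 1.903 against 2.80. That cluster holds T cells beside cells with NK genes, and the part of this mixture in the split was not tested. In clusters 2, 11 and 12 none of the 48 differed by 0.5, and in cluster 12 CD43 was 3.26 with and 3.23 without a Klrg1 UMI. In cluster 3 CD43 was 2.37 against 1.43, and in cluster 8 CD45R alone differed by 0.5, being lower in cells with Klrg1. Between genotypes, CD49a in cluster 12 had a median of 2.05 in TG (quartiles 0.897 and 2.80) and 0.462 in WT (0.240 and 1.15), and in cluster 11 it was 3.24 and 0.561. It was 1.92 and 0.485 in cluster 7, 3.18 and 2.97 in cluster 2, 3.40 and 3.32 in cluster 3, and 0.744 and 0.504 in cluster 8. CD4, the coreceptor of helper T cells, also had higher medians in TG, at 1.12 and 0.590 in cluster 8 and 1.62 and 0.567 in cluster 2. It was 1.95 and 0.569 in cluster 3, 1.40 and 0.698 in cluster 11, and 1.41 and 0.874 in cluster 12. In cluster 7 it was lower in TG, at 1.60 and 1.77. The part of antibody background in these values was not tested.

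**Figure D5:**
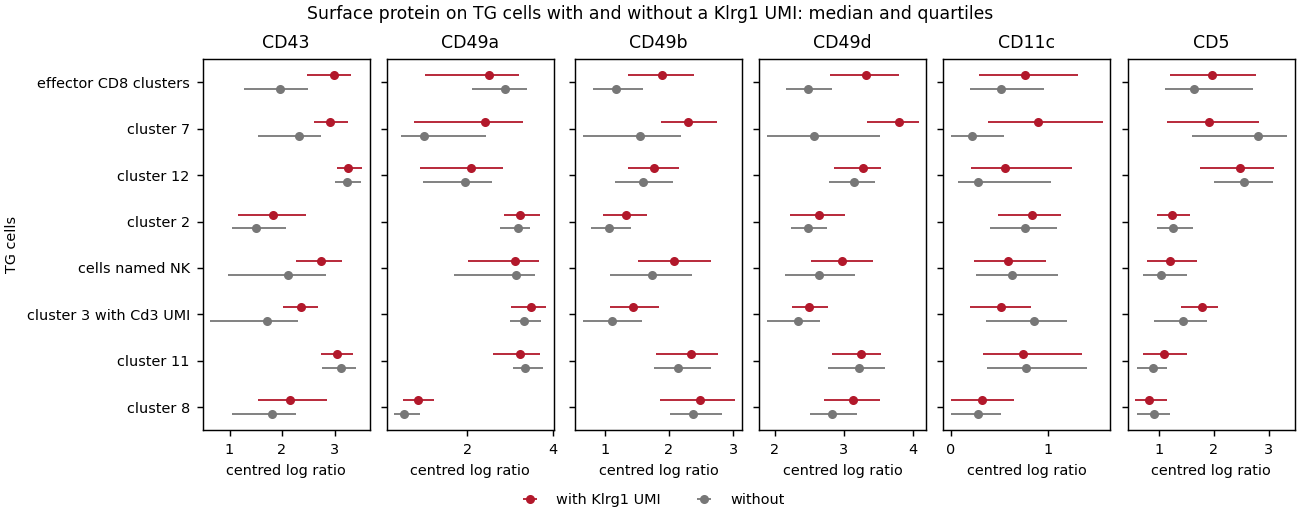
Median and quartiles of the centred log ratio (horizontal) of 6 surface proteins on TG cells with (red) and without (grey) a Klrg1 UMI, by cell set (vertical). The gap is widest for CD49a and CD49d in cluster 7 (2.41 against 0.985, and 3.80 against 2.57) and close to 0 for CD43 in cluster 12 (3.26 against 3.23).

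Regulators of the terminal state and memory genes were then counted in cluster 12, where 11.8% of all genes were past 2-fold higher in TG and 6.7% past 2-fold lower. Of 10 regulators of the terminal state 4 were past 2-fold higher in TG cells of that cluster (Zeb2 at 432 against 123 CPM, Tbx21 at 343 against 141 CPM, Prdm1 at 89.9 against 31.9 CPM and Id2 at 1277 against 583 CPM), none was past 2-fold lower, and the list's median log2 ratio was 0.81 beside 0.01 over all 7718 genes tested. Of 12 memory genes tested 9 were past 2-fold lower and none higher, with a median of -1.47. They included Il7r, the receptor chain for the survival cytokine IL-7, at 66.7 CPM in TG against 455 CPM in WT, Tcf7 at 236 against 542 CPM, Bach2 at 10.9 against 72.9 CPM and Cd27 at 54.5 against 187 CPM. Of 10 killing genes 3 were past 2-fold higher (Gzma at 9724 against 1188 CPM, Gzmb at 1118 against 487 CPM and Fasl at 93.9 against 41.0 CPM). Perforin, Prf1, was at 182 against 132 CPM and did not reach 2-fold. Of 5 mature NK genes tested 3 were past 2-fold higher (Klra9, Klre1 and Irf8, at log2 ratios of 2.60, 2.42 and 1.902). Of 6 residency genes Itga1 (1.55), which encodes the CD49a chain, and P2rx7 (1.52) were past 2-fold higher, and Cxcr6 (-1.78) and Cd69 (-1.12) past 2-fold lower. Cluster 12 was used to choose the 8 genes, and these values come from the same cells. The WT side rests on 73 cells with 219631 UMIs. Low WT levels there, such as those of Prdm1, Fasl and Klra9, therefore rest on few UMIs.

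Over the effector CD8 clusters as a whole, 5.25% of all genes were past 2-fold higher in TG and 4.01% past 2-fold lower. Tbx21 and Zeb2 were the 2 of 10 regulators past 2-fold higher, with a list median of 0.24 beside 0.01 over all genes. Id3, Bach2 and Slamf6 were the 3 of 13 memory genes past 2-fold lower, with a median of -0.66. That median was -0.23 in CD44 positive CD8 T cells and 0.05 in cluster 2. CD44 protein was gated in each genotype apart, with a lower mean of 2.74 in TG and 1.69 in WT. The gate may therefore not mark the same level in both. Gzma and Gzmm were the 2 of 10 killing genes past 2-fold higher. Of 8 residency genes only Itgae was past 2-fold lower, and the median was -0.71, with Cxcr6 at 180 against 315 CPM. None of 8 mature NK genes passed in either direction. Of the exit and homing receptors Ccr2 alone passed, at 60.8 against 164 CPM, while S1pr1, the receptor by which most T cells leave tissue, was at 85.7 and 76.8 CPM and S1pr4 at 148 and 134 CPM. Of 14 partners and ligands of the encoded proteins 6 were in the table and 5 could be tested, none past 2-fold. The rest, which include Cx3cl1, Rarres2 and Abcc9, were not analysed here.

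Across NK cells of cluster 8, where 4.68% of all genes were past 2-fold higher and 6.59% past 2-fold lower, none of the 10 regulators passed 2-fold in either direction (median 0.12), and 5 of 13 memory genes were past 2-fold lower, with Il7r at 17.7 CPM in TG against 77.2 CPM in WT and Tcf7 at 83.1 against 193 CPM.

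Leaving out the 8 genes themselves, the genes with the most similar profiles over the 39 cluster and genotype profiles differed between members. For Klrg1 they were Elf4 (r = 0.85), Itga2 (0.83), which encodes the CD49b chain, and Ppp1ca (0.81). For Cx3cr1 they were Smpdl3b, Cercam and Rap1gap2 (0.74 to 0.76), and for S1pr5 Cercam, Elf4 and Rap2b (all 0.69). Kcnj8 was closest to the NK receptor genes Klra9 (0.81) and Klre1 (0.79) and to the chemokine Ccl5 (0.79). Cmklr1 was closest to Cma1 (0.80), Gpx8 and Cercam. Among the 8 genes, S1pr5 and Cmklr1 were at 0.84 and Cx3cr1 and Cmklr1 at 0.81, above their values with those genes. The 8 genes were chosen together from these counts, and the profiles include the cells used, so this closeness describes the choice. Stk32c was closest to Elf4 (0.84), Kif13b and Gzma, and Itgad to Gzma (0.82), Gpr160 and Adamts14. As3mt was closest to Borcs7 (0.74), Txndc5 and Gnptab.

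Cells of the first pool with no genotype name were set beside the TG cells as a description. Among cells with UMIs of a Cd3 gene and Cd8a, Klrg1 was at 258 CPM in the 1240 named TG cells and 145 CPM in the 1697 others, Cx3cr1 at 247 and 184 CPM, and Itgad at 49.4 and 51.4 CPM. Among Ncr1 positive cells without Cd3 UMIs Klrg1 was at 503 CPM in 126 TG cells and 250 CPM in 142 others. The level of these genes in that library was therefore not confined to the cells named TG, and which genotypes the unnamed cells hold is not given.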

How the data were processed

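Transcripts and 49 antibody tags of liver immune cells were counted with UMIs after capture on BD Rhapsody. Per the labels and the methods of the study, the authors aligned reads to mm10 (GRCm38) with STAR in the vendor's pipeline. The authors deposited UMI counts per cell for both libraries, a filtered table of counts with a cell type, cluster and genotype for each named cell, and antibody values as natural log centred ratios. The filtered RNA counts were used as given. Its member counts differed from the library files in 0 named cells. A gene seen in under 10 cells of one genotype appears there as 0 for that genotype. The deposited normalised RNA table was not used. One surface protein is not reported here.

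The 8 genes and all gene lists were chosen with earlier results of these data known. UMIs of all cells of a genotype in a set were added up. A gene counted as tested with at least 10 UMIs over both profiles, and called past 2-fold at a log2 ratio of at least 1. A list's median used a pseudocount of 0.5 UMIs. Equal cluster shares used CD8 clusters of at least 20 cells in both genotypes. Genes named are the 8 members, the lists, and for each member the 3 genes other than members with the highest correlation over profiles of at least 50 cells, among genes with at least 100 UMIs (sex genes and antigen receptor segments not considered). Named marker genes of cell types serve as checks, and Foxp3 and Mki67 were added to the markers after the data were seen. Expected numbers of cells with both genes were products of shares within a cluster. Doublets were called by Scrublet (scanpy 1.11.5), which marked 0.839% of TG and 3.31% of WT cells at an expected 5%. These cells stay in all values, and an alternative drops them. The library files share 267 cell barcodes, 36 of them among named TG and WT cells. Other alternatives were totals that leave out ribosomal and mitochondrial genes, scaling by TMM (edgeR 4.0.16, R 4.3.3), giving each cell the same weight, thinning to 1000 UMIs, and other definitions of the cells. Python 3.11.15 with scipy 1.17.1 was used.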

Additional observations from a re-analysis of the deposited data

Results flagged for a closer look

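The TG to WT log2 ratio of Kcnj8 had opposite signs in 2 clusters. It was -1.78 in cluster 3 and 2.22 in cluster 12, with intervals that lie on either side of 0. The difference between the clusters was not tested, since each genotype has 1 library.

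Cells of the second pool with no genotype name entered no comparison of TG with WT and are set beside named cells as a description. Their 9635 cells with UMIs of a Cd3 gene and Cd8a were set beside the 987 named WT cells picked likewise from that library. In the unnamed cells 4 of the 8 genes had intervals wholly above those of the named WT cells. No share of all genes past the same rule is given, so the count is not read as particular to these genes. Klrg1 was at 39.6 CPM (37.7 to 41.6) against 24.4 CPM (19.6 to 30.1), Cx3cr1 at 37.4 against 19.4 CPM, Stk32c at 18.8 against 7.48 CPM and Itgad at 27.6 against 13.9 CPM. As3mt was also above, at 12.5 against 8.32 CPM, with overlapping intervals. Kcnj8 was below, at 3.65 CPM (3.09 to 4.28) against 6.93 CPM (4.48 to 10.2), and S1pr5 (6.22 against 9.70 CPM) and Cmklr1 (3.99 against 5.27 CPM) were below with overlapping intervals. The 4 higher levels first named were below those of the TG cells picked in the same way in the first pool.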

How the results depend on the processing

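Of 290 values recomputed under an alternative, 241 moved by less than their interval, spread or count limit, 47 moved by more, and 2 changed sign from a value past its limit. Counting small values too, 10 had the other sign than the value reported. In the effector CD8 clusters all 80 member ratios stayed above 0, which describes the choice of the genes. Over cells named NK 89 of 94 did. The 2 were the median of the killing list in cells thinned to 1000 UMIs (-0.0172, from 0.26) and Itgad over cells named NK without a Cd3e UMI (-0.65, from 1.74), an alternative chosen after seeing the data. The other 8 were list medians of partners and ligands with equal weight per cell (-0.0067) and in CD44 positive CD8 T cells (-0.042, from 0.06), of exit and homing receptors when thinned (-0.20, from 0.06) and of mature NK genes without clusters 2 and 7 (-0.27, from 0.12), and, over cells named NK, As3mt in cluster 8 only (-0.06) and cluster 11 only (-0.24, from 0.25) and Kcnj8 in cluster 3 only (-1.78) and without Cd3e UMIs (-0.78, from 0.35), the latter 2 chosen after seeing the data. The killing median was 0.0947 with equal weight per cell and 0.0935 without clusters 2 and 7. Other list medians that moved were memory genes in CD44 positive CD8 T cells (-0.23), residency genes in CD44 positive cells (-0.50) and without Trdc positive cells (-0.52), and terminal regulators without clusters 2 and 7 (0.42). With no minimum count, genes past 2-fold were 1373 in the effector CD8 clusters in place of 580, and 1599 over cells named NK in place of 565. At equal cluster shares Klrg1 was 3.33 without the 3 cells with most of its UMIs in each profile, and Cx3cr1 was 1.86 with equal weight per cell, 1.69 when thinned and 2.60 without its 3 top cells. The cause was not tested. No paired analysis was possible because each genotype has 1 library. In cluster 11 the WT side rests on 22 cells, and genes at 0 UMIs allow only lower bounds.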
